A study of Mus musculus with 18 samples.

Results

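CXC chemokines are small secreted proteins that steer leukocytes, and 9 of their genes were picked by symbol from the 55573 genes of the count table: Cxcl1, Cxcl2, Cxcl3, Cxcl9, Cxcl10, Cxcl11, Cxcl13, Cxcl16 and Pf4. All 9 had enough counts to be among the 13443 genes tested. The samples were macrophages from the peritoneal lavage of C57BL/6 mice, sorted on CD11b and F4/80 and used freshly, in 18 RNA-seq libraries of 3 per group. Zeb1WT mice carried the floxed Zeb1 alleles without Cre (Zeb1f/f), and Zeb1∆M mice carried the same alleles with Cre under the LysM (Lyz2) promoter (Zeb1f/f LysM Cre), which is active in neutrophils and other myeloid cells as well as in macrophages. In both genotypes mice received in vivo either a single dose of LPS (lipopolysaccharide, a bacterial cell wall component; the LPS group), 2 doses on consecutive days (LPS + LPS), or Metformin, an anti-diabetic drug, before a single dose of LPS (Metformin + LPS). Every group had received LPS, so no level stands for resting cells, and each library came from a pool of 2 to 3 mice. The age and sex of these mice are not given in the sources used here.

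Chemokines bind receptors on leukocytes and on platelets, and the receptor decides which cell responds. CXCL1, CXCL2 and CXCL3 act on CXCR2 and draw neutrophils, and macrophages make them within hours of sensing LPS through TLR4 and NF-kB. CXCL9, CXCL10 and CXCL11 act on CXCR3 of activated T cells and NK cells and are induced by interferons. CXCL13 acts on CXCR5 and guides B cells, in the mouse peritoneum among other places, CXCL16 is a membrane-bound ligand of CXCR6, and PF4 (CXCL4) is a heparin-binding chemokine best known from platelets. A macrophage that has met LPS before makes less of many inflammatory genes at a second dose, a state called tolerance, and ZEB1 is a transcription factor that binds E-box sequences and is best known as a repressor of epithelial genes.

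Total counts were 14053706 to 30570439 per library, and the 9 chemokines together took up 0.251% to 2.07% of them. Levels below are CPM, read counts relative to the library's total and scaled by TMM factors, which correct for library composition and ran from 0.445 to 1.56. The deleted gene Zeb1 stood at 12.3 to 12.9 CPM in Zeb1WT Metformin + LPS and at 3.92 to 4.79 in Zeb1∆M, a change of -1.55 on the log2 scale (edgeR, SE 0.35, adjusted p = 0.012). In LPS Zeb1 was lower as well (-1.60, edgeR SE 0.36, adjusted p = 0.030). In LPS + LPS it did not pass the test (-0.88, edgeR SE 0.37, adjusted p = 0.35), and without replicate 1 of Zeb1WT it was -1.13 (edgeR, SE 0.38, adjusted p = 0.12). There it was low in both genotypes, at 0.912 to 2.52 CPM in Zeb1WT and 0.738 to 0.926 in Zeb1∆M, with overlap. The second dose itself lowered Zeb1 by 2.18 in Zeb1WT (edgeR, SE 0.36, adjusted p = 1.1e-04) and by 1.46 in Zeb1∆M (edgeR, SE 0.38, adjusted p = 0.0062). Summed over 10 marker genes of large peritoneal macrophages, the level was 13981 to 23147 CPM in the LPS and Metformin + LPS groups and 2576 to 6699 CPM in the LPS + LPS groups. 1 library stood apart for some chemokines: in replicate 1 of Zeb1WT LPS + LPS, Cxcl9 was 15.1 times the mean of the other 2 replicates, Cxcl10 9.9 times and Cxcl11 46.7 times. The genotype and second-dose changes of these 3 genes that use this group are therefore given with it and without it, as are the counts of chemokines called. Other values of this group, among them the marker and pathway lists, include it unless stated. Metformin + LPS libraries belong to another library series than the LPS and LPS + LPS libraries by their codes, so Metformin and library series cannot be told apart. Nothing states that the pools of a group were prepared apart from each other, and p-values measure only the spread between these libraries.

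The gene positions (GRCm38, GENCODE M21) put 8 of the 9 on chromosome 5. Pf4 (90772435 to 90773383), Cxcl3 (90786103 to 90789600), Cxcl1 (90891241 to 90893115) and Cxcl2 (90903871 to 90905938) lie on the plus strand within 133.504 kb, and Cxcl9 (92321347 to 92328079), Cxcl10 (92346638 to 92348889) and Cxcl11 (92359544 to 92365485) on the minus strand within 44.139 kb. Cxcl13 (95956951 to 95961068, plus strand) follows on chromosome 5, and Cxcl16 (70453983 to 70459984, minus strand) is on chromosome 11. The annotation types Cxcl11 as a polymorphic pseudogene, and the C57BL/6 allele is known not to give a full protein, so its counts describe RNA.

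The stretches upstream of 5 of the genes are printed to show the letters that differ between the neutrophil-attracting, the interferon-induced and the B cell-attracting genes described below. RefSeq promoters were at hand for 7 of the 9 genes (not for Cxcl11 and Cxcl16) out of 32851. The capitals in Cxcl1, Cxcl2 and Cxcl3 mark GGAATTTCC, a kappa B-like sequence of the kind NF-kB binds, at 62 to 70, 88 to 96 and 64 to 72 bases before the RefSeq start.
Cxcl3, chr5:90785981-90786100 (plus strand, GRCm38.p6): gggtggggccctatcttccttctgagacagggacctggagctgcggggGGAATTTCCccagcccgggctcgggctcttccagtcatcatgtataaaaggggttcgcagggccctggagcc
Cxcl1, chr5:90891125-90891240 (plus strand, GRCm38.p6): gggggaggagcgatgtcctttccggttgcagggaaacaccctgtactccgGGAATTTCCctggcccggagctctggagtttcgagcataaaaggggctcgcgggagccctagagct
Cxcl2, chr5:90903779-90903870 (plus strand, GRCm38.p6): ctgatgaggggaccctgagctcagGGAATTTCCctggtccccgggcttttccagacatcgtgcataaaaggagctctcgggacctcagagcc
In Cxcl10 the capitals mark AAANNGAAA, part of an interferon-response-like element, at 204 to 212 bases before the start, and the same kappa B-like letters read from the opposite strand, at 150 to 158 bases. In Cxcl13 nothing is capitalised.
Cxcl10, chr5:92348890-92349139 (minus strand, GRCm38.p6): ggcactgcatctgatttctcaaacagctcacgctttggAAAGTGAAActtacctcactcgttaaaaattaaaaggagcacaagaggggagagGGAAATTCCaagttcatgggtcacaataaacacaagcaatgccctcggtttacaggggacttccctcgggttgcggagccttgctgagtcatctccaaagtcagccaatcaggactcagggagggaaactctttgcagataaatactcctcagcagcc
Cxcl13, chr5:95956819-95956938 (plus strand, GRCm38.p6): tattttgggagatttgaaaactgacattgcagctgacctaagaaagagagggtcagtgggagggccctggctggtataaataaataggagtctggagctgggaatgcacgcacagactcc
Within 250 bases before the start and on both strands, GGAATTTCC was found in 0.286% of all promoters and in 4 of the 7 chemokine promoters. AAANNGAAA was found in 9.37% of all promoters and in Cxcl10 alone among the 7, and CACCTG, an E-box of the kind ZEB1 binds, in 17.2% of all promoters and in 0 of the 7. The matches do not overlap each other, the motifs were chosen with the sequences known, and a match describes letters and not binding.

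The 9 transcripts differed widely in level. Per kilobase of exon, Cxcl10 led in Zeb1WT LPS with 3656 ± 1094 CPM per kb (mean ± SD, n = 3), followed by Cxcl13 with 3004 ± 1426, a difference within their spread. In Zeb1∆M LPS the order of this pair was the other way round, with Cxcl13 at 8495 ± 4544 CPM per kb and Cxcl10 at 2029 ± 332. In LPS + LPS Cxcl13 led in both genotypes, at 880.4 ± 487 CPM per kb in Zeb1WT and 3731 ± 802 in Zeb1∆M, with Pf4 second at 186 ± 10.5 and 298 ± 11.2. In Metformin + LPS Cxcl10 led again, at 12236 ± 4126 CPM per kb in Zeb1WT and 4140 ± 179 in Zeb1∆M. Cxcl11 was the lowest in the LPS and LPS + LPS groups, down to 0.228 ± 0.204 CPM per kb in Zeb1∆M LPS + LPS, whereas Cxcl9 was the lowest in Zeb1WT Metformin + LPS (13.8 ± 3.86) and Cxcl3 in Zeb1∆M Metformin + LPS (17.02 ± 1.27).

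**Figure D1:**
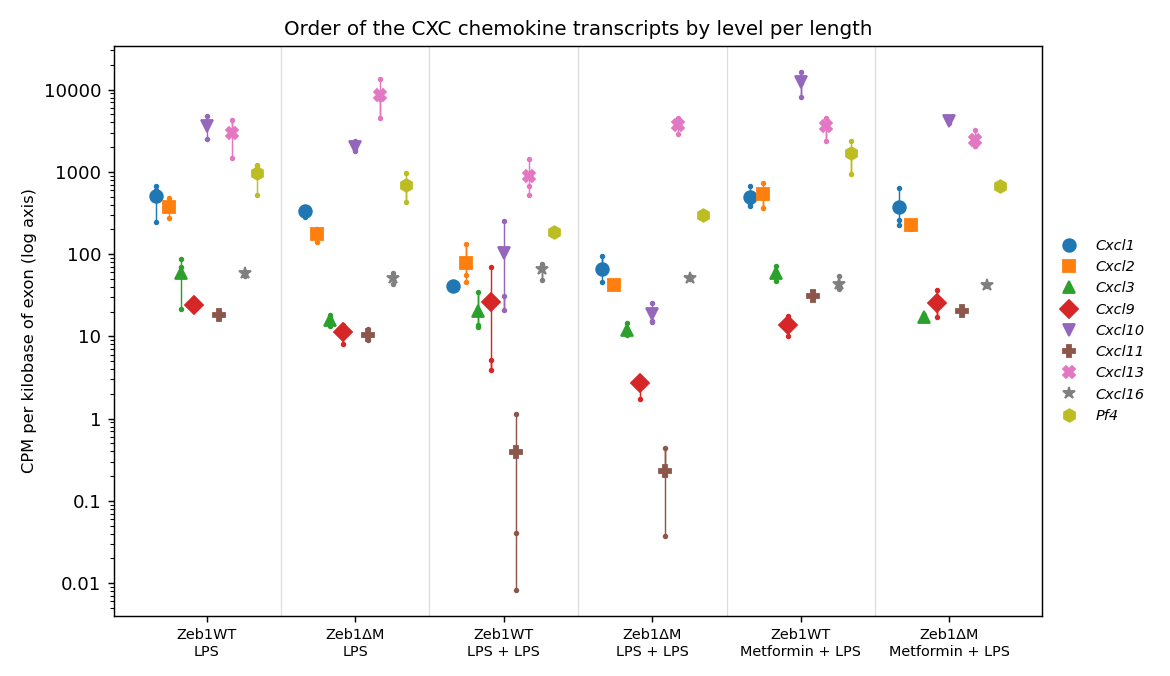
Level per length of the 9 chemokine transcripts in each group, in CPM per kilobase of exon on a log axis. Small points are the 3 libraries of a group joined by a line, large symbols are the group means. Cxcl10 and Cxcl13 hold the top places in LPS and Metformin + LPS, and Cxcl13 stands alone at the top in LPS + LPS.

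The design gives 3 kinds of comparison for these genes: between genotypes within a treatment, between a second and a single LPS dose, and between LPS with and without Metformin. Between Zeb1∆M and Zeb1WT macrophages in LPS, 1 of the 9 chemokines, Cxcl3, was lower at an adjusted p under 0.05 (edgeR quasi-likelihood test, Benjamini-Hochberg), against 1.15% of all genes called. In LPS + LPS 1 of 9, Cxcl13, was higher (0.677% of all genes called), and in Metformin + LPS 3 of 9, Cxcl2, Cxcl3 and Pf4, were lower (5.87% of all genes called). A second LPS dose lowered 7 of 9 in Zeb1WT (36.6% of all genes called) and 7 of 9 in Zeb1∆M (32.7%). With Metformin before LPS 1 of 9, Cxcl10, was higher in Zeb1WT (25.2%) and 1 of 9, Cxcl13, lower in Zeb1∆M (26.2%). Without replicate 1 of Zeb1WT LPS + LPS, which left 17 libraries and 13947 genes, the same comparisons called 1 of 9 (1.75% of all genes), 1 of 9 (2.85%), 4 of 9 (6.37%), 8 of 9 (33.4%), 7 of 9 (32.0%), 2 of 9 (25.4%) and 4 of 9 (26.5%). The comparisons share groups: the LPS libraries are the reference for both the second dose and Metformin.

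**Figure D2:**
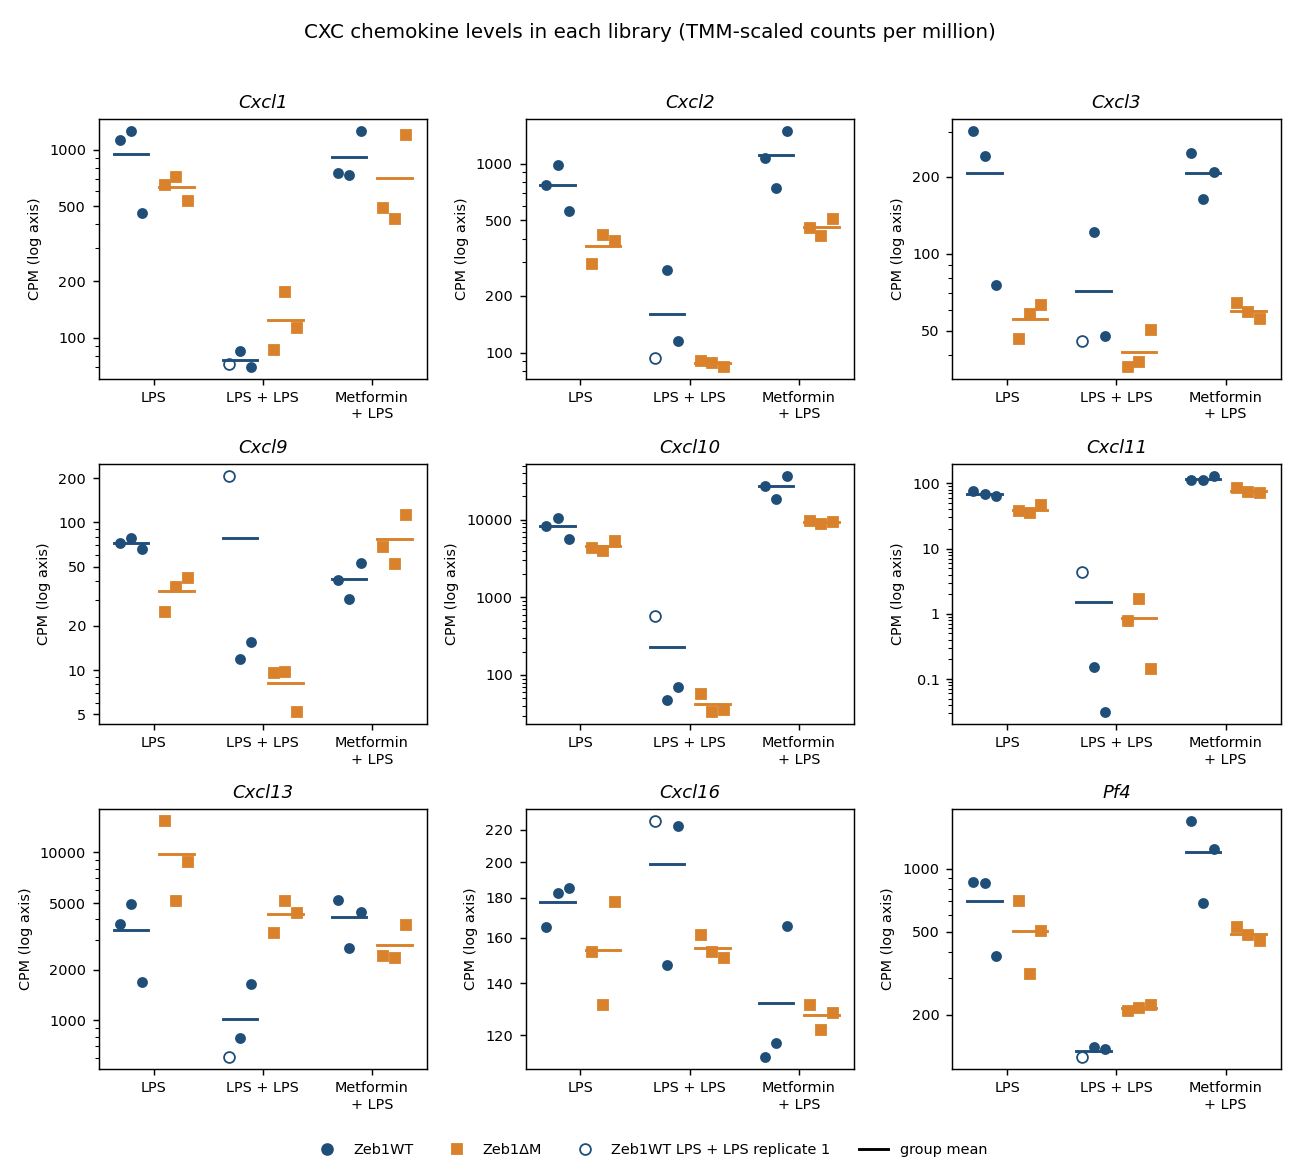
Levels of the 9 chemokines in each of the 18 libraries, in TMM-scaled CPM on log axes that differ between panels. Circles are Zeb1WT, squares Zeb1∆M, horizontal lines the means of 3 libraries, and the open circle replicate 1 of Zeb1WT LPS + LPS. Cxcl9, Cxcl10 and Cxcl11 are highest within their group in that library, and Cxcl3 is lower in each Zeb1∆M library than in each Zeb1WT library in LPS and in Metformin + LPS.

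Of the neutrophil attractants, Cxcl3 had the largest genotype difference in LPS and in Metformin + LPS, and Cxcl2 in LPS + LPS, without a test of that order. In LPS it stood at 303, 242 and 75.7 CPM in the 3 Zeb1WT libraries and at 46.4, 57.9 and 63.0 in Zeb1∆M. The ranges did not overlap, although replicate 3 of Zeb1WT was close to the Zeb1∆M level. The log2 fold change was -1.89 (edgeR, SE 0.40, adjusted p = 0.025), 3.71-fold lower. In Metformin + LPS Cxcl3 stood at 248, 164 and 209.7 CPM in Zeb1WT and at 64.3, 59.0 and 55.4 in Zeb1∆M, and every Zeb1∆M library was below every Zeb1WT library. There the change was -1.799 (edgeR, SE 0.40, adjusted p = 0.012), 3.48-fold lower, and only leaving out replicate 2 of Zeb1∆M took it past the threshold (adjusted p = 0.052). In LPS + LPS the libraries overlapped, with 45.5, 121 and 47.6 CPM in Zeb1WT and 36.1, 37.7 and 50.1 in Zeb1∆M, and the change of -0.79 (edgeR, SE 0.39, adjusted p = 0.45) did not pass the test. The LPS call held without replicate 3 of Zeb1WT and was lost without any other LPS library (adjusted p 0.073 to 0.13), while the size stayed between -2.29 and -1.51. It was also lost when the 2 LPS groups were fitted alone (-1.90, edgeR adjusted p = 0.062), where Cxcl9 was called instead (-1.09, edgeR adjusted p = 0.041).

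Cxcl2, made alongside Cxcl3 and read by the same receptor, stood at 767, 984 and 561 CPM in Zeb1WT LPS and at 293, 419.9 and 388 in Zeb1∆M LPS. The ranges did not overlap, but the change of -1.07 (SE 0.33) missed the threshold in edgeR (adjusted p = 0.14) and passed it in DESeq2 (adjusted p = 0.034). In Metformin + LPS Cxcl2 was lower in Zeb1∆M, with 1075, 743 and 1496 CPM in Zeb1WT against 458, 415 and 511 (-1.26, edgeR SE 0.33, adjusted p = 0.031, 2.39-fold). That call was kept without replicate 2 of Zeb1WT and lost without any other library of the pair of groups (adjusted p 0.054 to 0.14), and lost with library totals (-0.60, edgeR adjusted p = 0.15). In LPS + LPS it stood at 94.1, 274 and 115 CPM in Zeb1WT and at 90.3, 88.3 and 84.2 in Zeb1∆M, a change of -0.88 (edgeR, SE 0.33, adjusted p = 0.28). Here replicate 2 of Zeb1WT was the high library, and the lowest Zeb1WT library was next to the highest Zeb1∆M library.

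Cxcl1 was not called between genotypes in any treatment, without a test of its difference from Cxcl2 and Cxcl3. It stood at 1120.0, 1259 and 459 CPM in Zeb1WT LPS and at 648, 711 and 536 in Zeb1∆M LPS, and at 752, 731 and 1263 against 488, 427 and 1198 in Metformin + LPS, with overlapping ranges in both. The changes of -0.58 (SE 0.39) and -0.38 (SE 0.39) did not pass the test (edgeR adjusted p = 0.54 and 0.63). In LPS + LPS the 3 Zeb1∆M libraries, at 86.3, 175 and 112 CPM, were all above the 3 Zeb1WT libraries at 72.8, 85.3 and 70.0, by less than the test could call (0.71, edgeR SE 0.39, adjusted p = 0.52). Replicate 3 of Zeb1WT LPS was the lowest of its group for 8 of the 9 chemokines, Cxcl16 being the exception. These counts come from related genes, and reads shared between Cxcl1, Cxcl2 and Cxcl3 would have been divided between them by the counting program.

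A second LPS dose lowered Cxcl1 more than Cxcl2 and Cxcl3 in Zeb1WT, without a test of that order. Cxcl1 fell by 3.64 on the log2 scale (edgeR, SE 0.43, adjusted p = 3.1e-06), Cxcl2 by 2.26 (edgeR, SE 0.34, adjusted p = 4.8e-05) and Cxcl3 by 1.54 (edgeR, SE 0.40, adjusted p = 0.0055). In Zeb1∆M Cxcl1 fell by 2.34 (edgeR, SE 0.41, adjusted p = 2.3e-04) and Cxcl2 by 2.07 (edgeR, SE 0.34, adjusted p = 1.3e-04), whereas Cxcl3 did not pass the test at -0.43 (edgeR, SE 0.39, adjusted p = 0.44). The Cxcl3 libraries of Zeb1∆M overlapped between the treatments. The genotypes' responses to the second dose were not shown to differ: the interaction was 1.30 for Cxcl1 (edgeR, SE 0.55, adjusted p = 0.66) and 1.103 for Cxcl3 (edgeR, SE 0.55, adjusted p = 0.73). Metformin before LPS left all 3 genes without a call in either genotype, with log2 fold changes between -0.05 and 0.52.

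Neutrophil marker genes moved in the same direction as Cxcl2 and Cxcl3 between genotypes. Their sum over 10 genes was 254 to 556 CPM in Zeb1WT LPS and 36.1 to 116 in Zeb1∆M LPS, and 49.8 to 133 against 6.22 to 10.7 in Metformin + LPS. Of the 9 tested, 4 were lower in Zeb1∆M in LPS (1.15% of all genes called) and 7 in Metformin + LPS (5.87%). In LPS + LPS 0 of 9 were called (0.677%), with 8 at an unadjusted p under 0.05 and a median of -1.68. Without replicate 1 of Zeb1WT LPS + LPS 4 were called lower there (2.85%). DESeq2 called 6, 3 and 7 lower in LPS, LPS + LPS and Metformin + LPS (3.76%, 2.84% and 10.2% of all genes). Up to 3 of the 10 markers were at 0 in a Zeb1WT library and up to 7 in a Zeb1∆M Metformin + LPS library. With the second dose their sums were 625 to 3460 CPM in Zeb1WT LPS + LPS and 422 to 1065 in Zeb1∆M LPS + LPS, above those of LPS, whereas Cxcl2 was lower in both genotypes. Of the 9 tested, 5 were higher in Zeb1WT (36.6% of all genes called) and 5 in Zeb1∆M (32.7%). With Metformin 7 were lower in Zeb1WT (25.2%) and 8 in Zeb1∆M (26.2%), with medians of -1.92 and -4.76, and Cxcl2 and Cxcl3 were not called. Of 6 markers of monocytes and small peritoneal macrophages, 2 were lower in Zeb1∆M in LPS (Ly6c2 and Irf4), 1 in LPS + LPS (Retnla) and 3 in Metformin + LPS (Ccr2, Ly6c2 and Retnla), against 1.15%, 0.677% and 5.87% of all genes called. The medians of these 6 markers were -0.79, -0.51 and -1.57, and DESeq2 called 3, 1 and 4 of them lower (3.76%, 2.84% and 10.2% of all genes). Their sum, most of it Fn1, overlapped between the genotypes in LPS and in Metformin + LPS, at 5676 to 7658 CPM in Zeb1WT and 6967 to 13575 in Zeb1∆M in LPS, and 9319 to 15579 against 6132 to 14000 in Metformin + LPS. Eosinophil and mast cell markers summed to 2.12 to 166 CPM, with 1 of 4 tested, Siglecf, lower in Zeb1∆M in Metformin + LPS (5.87% of all genes called), and T and NK cell markers to at most 3.87 CPM. Whether cells other than macrophages, or the mix of macrophages, had a part in the Cxcl2, Cxcl3 and Pf4 differences was not tested. In these bulk libraries fewer cells of a type and less RNA per cell cannot be told apart.

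**Figure D3:**
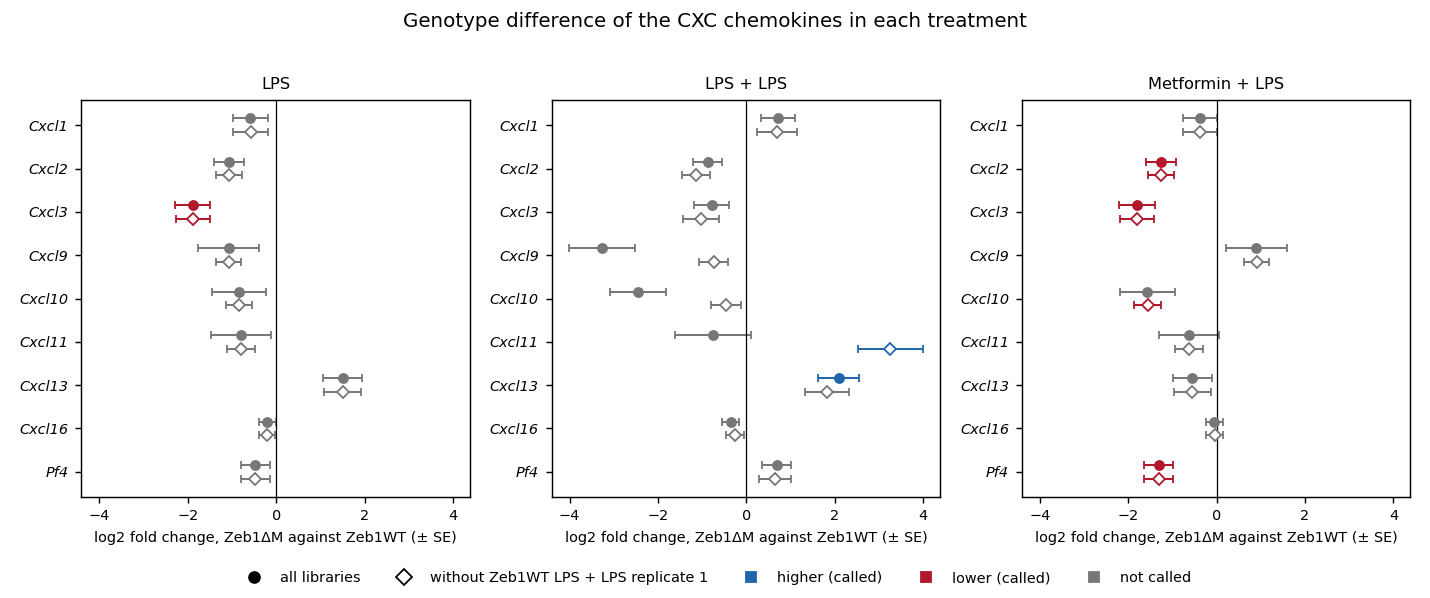
Log2 fold change of the 9 chemokines in Zeb1∆M against Zeb1WT in each treatment, with bars of 1 standard error. Filled circles use all 18 libraries, open diamonds leave out replicate 1 of Zeb1WT LPS + LPS, and colour marks calls at an adjusted p under 0.05 (blue higher, red lower, grey not called). Cxcl3 lies at -1.89 in LPS and -1.799 in Metformin + LPS, and in LPS + LPS Cxcl9, Cxcl10 and Cxcl11 shift when the library is left out.

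The interferon-induced group was dominated by Cxcl10, the most counted chemokine in Zeb1WT LPS and in both Metformin + LPS groups. It stood at 8326, 10649 and 5726 CPM in Zeb1WT LPS and at 4316, 3982 and 5411 in Zeb1∆M LPS. Each Zeb1∆M library was below each Zeb1WT library, with a change of -0.85 (edgeR, SE 0.61, adjusted p = 0.58) that did not pass the test. In Metformin + LPS Cxcl10 reached 27137, 18481 and 37050.3 CPM in Zeb1WT and 9615, 8863 and 9489 in Zeb1∆M, again with no overlap. The change was -1.56 in both fits, with a standard error of 0.62 and an edgeR adjusted p of 0.15 over 18 libraries, and with 0.30 and 0.0055 without replicate 1 of Zeb1WT LPS + LPS, a library of neither group compared. Leaving that library out also changed which genes were tested and adjusted over (13443 against 13947).

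Cxcl9 and Cxcl11 were far less abundant. Cxcl11 stood at 75.3, 68.2 and 64.7 CPM in Zeb1WT LPS and at 37.6, 34.6 and 47.0 in Zeb1∆M LPS, and at 113, 111 and 131 against 84.0, 75.1 and 71.7 in Metformin + LPS. The Zeb1∆M libraries were the lower ones in both, without a call (-0.80, SE 0.68, and -0.62, SE 0.67; edgeR adjusted p = 0.66 and 0.65). Cxcl9 stood at 72.8, 78.6 and 66.5 CPM in Zeb1WT LPS and at 24.7, 36.4 and 41.9 in Zeb1∆M LPS, lower in each Zeb1∆M library (-1.08, edgeR SE 0.69, adjusted p = 0.52). In Metformin + LPS the order was the opposite, with 41.0, 30.2 and 53.5 CPM in Zeb1WT and 68.3, 52.5 and 112 in Zeb1∆M, and the ranges overlapped by a single library of each (0.90, edgeR SE 0.69, adjusted p = 0.50). The interaction of genotype with Metformin for Cxcl9 was 1.98 (edgeR, SE 0.98, adjusted p = 0.39) over 18 libraries and 1.98 (edgeR, SE 0.41, adjusted p = 0.046) without replicate 1 of Zeb1WT LPS + LPS, where 0.480% of all genes were called.

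Over all 9 chemokines the libraries of the genotypes separated in LPS for 5 lower genes (Cxcl2, Cxcl3, Cxcl9, Cxcl10 and Cxcl11), a pattern found in 10.8% of all genes, and for 1 higher gene, Cxcl13 (10.1% of all genes). In Metformin + LPS 5 were lower in each Zeb1∆M library (Cxcl2, Cxcl3, Cxcl10, Cxcl11 and Pf4; 12.9% of all genes) and 0 higher (11.5%). In LPS + LPS 2 were lower throughout, Cxcl2 and Cxcl9 (8.79%), and 3 higher, Cxcl1, Cxcl13 and Pf4 (9.07%). These counts describe the libraries and carry no test.

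After a second LPS dose Cxcl10 and Cxcl11 fell by more than any other of the 9 chemokines. In Zeb1∆M Cxcl10 fell by 6.76 on the log2 scale (edgeR, SE 0.78, adjusted p = 3.1e-06), down to 57.5, 33.5 and 35.04 CPM. In Zeb1WT it fell by 5.16 with all libraries (edgeR, SE 0.72, adjusted p = 2.2e-05) and by 7.15 without replicate 1 (edgeR, SE 0.47, adjusted p = 6.8e-09). The levels behind this were 575 CPM in replicate 1 and 46.9 and 69.3 in the other 2. Cxcl11 came close to the limit of detection, with 118, 4 and 1 counts in the 3 Zeb1WT LPS + LPS libraries and 23, 40 and 3 counts in Zeb1∆M. It fell by 5.55 in Zeb1WT (edgeR, SE 0.84, adjusted p = 5.0e-05), by 9.55 without replicate 1 (edgeR, SE 0.65, adjusted p = 9.2e-09), and by 5.49 in Zeb1∆M (edgeR, SE 0.87, adjusted p = 9.0e-05).

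For Cxcl9 the same library decided the call. It stood at 207, 11.9 and 15.5 CPM in Zeb1WT LPS + LPS and at 9.49, 9.72 and 5.21 in Zeb1∆M LPS + LPS. With all libraries the second dose gave 0.11 in Zeb1WT (edgeR, SE 0.68, adjusted p = 0.92), and without replicate 1 Cxcl9 fell by 2.41 (edgeR, SE 0.35, adjusted p = 4.3e-05). In Zeb1∆M it fell by 2.07 (edgeR, SE 0.72, adjusted p = 0.034), a call kept without replicate 1 of LPS and lost without any other Zeb1∆M library compared (adjusted p 0.067 to 0.12), and kept with a smaller spread without replicate 1 of Zeb1WT LPS + LPS (edgeR, SE 0.30, adjusted p = 4.0e-05). The genotype difference in LPS + LPS was -3.26 for Cxcl9 (edgeR, SE 0.75, adjusted p = 0.053) and -2.46 for Cxcl10 (edgeR, SE 0.64, adjusted p = 0.094) over 18 libraries, and -0.74 (edgeR, SE 0.33, adjusted p = 0.25) and -0.46 (edgeR, SE 0.33, adjusted p = 0.55) without replicate 1. Cxcl11 turned from -0.75 (edgeR, SE 0.86, adjusted p = 0.82) to 3.26, called higher (edgeR, SE 0.73, adjusted p = 0.023), a value that rests on the 4 counts and 1 count left in Zeb1WT.

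Metformin before LPS went with more Cxcl10 in Zeb1WT, by 1.74 on the log2 scale (edgeR, SE 0.62, adjusted p = 0.048, 3.35-fold), with every Metformin + LPS library above every LPS library. Leaving out replicate 2 of Metformin + LPS kept this call, and leaving out any other of the 6 libraries lost it (adjusted p 0.067 to 0.15). With library totals in place of TMM factors it was lost as well (0.97, edgeR adjusted p = 0.16). Without replicate 1 of Zeb1WT LPS + LPS it was 1.74 (edgeR, SE 0.31, adjusted p = 5.6e-04). In Zeb1∆M the change was 1.03 (edgeR, SE 0.61, adjusted p = 0.23), and 1.03 (edgeR, SE 0.30, adjusted p = 0.018) without replicate 1 of Zeb1WT LPS + LPS. Cxcl11 stood at 0.77 in Zeb1WT (edgeR, SE 0.68, adjusted p = 0.44) and 0.95 in Zeb1∆M (edgeR, SE 0.68, adjusted p = 0.32), the latter called without that library (edgeR, SE 0.32, adjusted p = 0.037). Cxcl9 differed in sign between genotypes, with -0.81 in Zeb1WT and 1.17 in Zeb1∆M, not called over 18 libraries and called without that library (edgeR adjusted p = 0.047 and 0.0068), with the compared groups alone (0.018 and 0.017) and without the count filter (0.0076 and 1.2e-05). These Metformin differences cannot be told apart from the library series, and the 3 genes lie next to each other on the chromosome.

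**Figure D4:**
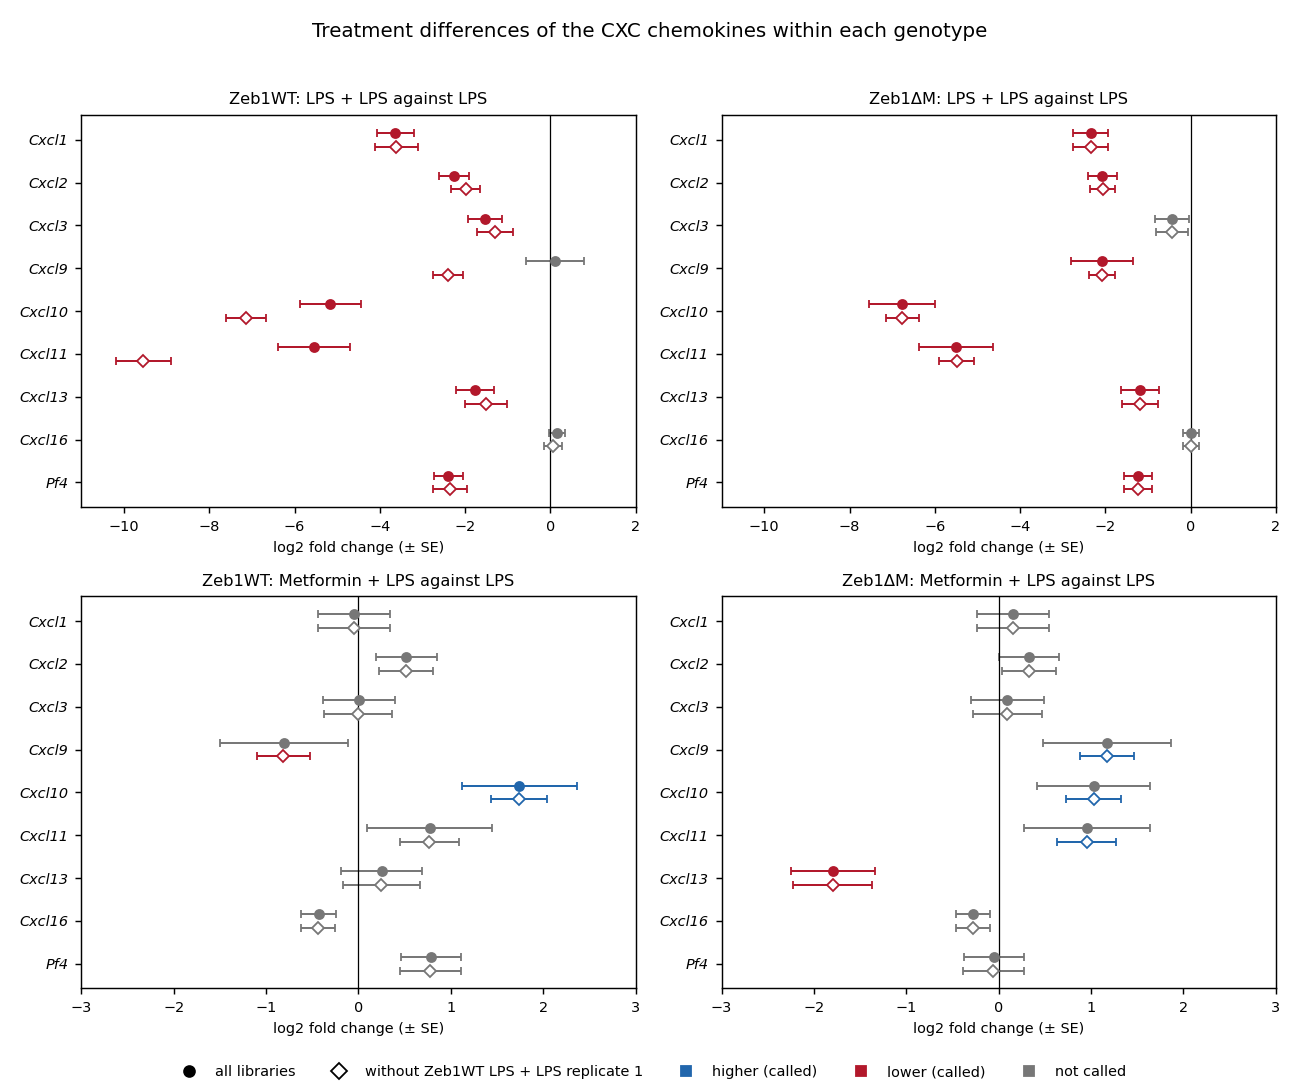
Log2 fold change of the 9 chemokines with a second LPS dose (upper row, axis to -11) and with Metformin before LPS (lower row, axis from -3 to 3), within Zeb1WT (left) and Zeb1∆M (right), with bars of 1 standard error. Filled circles use 18 libraries, open diamonds 17, and colour marks calls (blue higher, red lower). Cxcl10 and Cxcl11 lie farthest below 0 with the second dose, and Cxcl16 lies at 0.16 and 0.01.

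Cxcl13 was the only one of the 9 with its highest level in Zeb1∆M LPS. It stood at 3758, 4921 and 1684 CPM in Zeb1WT LPS and at 15435, 5137 and 8735 in Zeb1∆M LPS, a wide range among the Zeb1∆M libraries, whose lowest was just above the highest Zeb1WT library. The change of 1.4999 (SE 0.45) was not called by edgeR (adjusted p = 0.12) and was called by DESeq2 (adjusted p = 0.028). In LPS + LPS the 3 Zeb1∆M libraries, at 3326, 5164 and 4382 CPM, lay above the Zeb1WT libraries at 604, 782 and 1650.3. There Cxcl13 was higher in Zeb1∆M by 2.08 on the log2 scale (edgeR, SE 0.46, adjusted p = 0.040, 4.24-fold), and by 1.82 without replicate 1 of Zeb1WT (edgeR, SE 0.50, adjusted p = 0.056), so the call was lost and the direction kept. It was also lost without any other library of the group pair but replicate 3 of Zeb1WT (adjusted p 0.054 to 0.18).

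In Metformin + LPS the genotypes did not separate for Cxcl13, with 5215, 2694 and 4446 CPM in Zeb1WT and 2404, 2356 and 3680.2 in Zeb1∆M (-0.55, edgeR SE 0.44, adjusted p = 0.53). Against LPS, Cxcl13 was lower with Metformin in Zeb1∆M, at -1.796 (edgeR, SE 0.45, adjusted p = 0.0078, 3.47-fold) and stood at 0.25 in Zeb1WT (edgeR, SE 0.44, adjusted p = 0.72). The interaction was -2.05 (SE 0.63), not called by edgeR (adjusted p = 0.17) and called by DESeq2 (adjusted p = 0.041). If the Zeb1∆M LPS library with 15435 CPM (replicate 1) was left out, the Metformin change in Zeb1∆M was -1.31 (edgeR adjusted p = 0.05005). A second LPS dose lowered Cxcl13 by 1.77 in Zeb1WT (edgeR, SE 0.45, adjusted p = 0.0049) and by 1.19 in Zeb1∆M (edgeR, SE 0.44, adjusted p = 0.048). The latter was not called without any one of 5 of the 6 Zeb1∆M libraries compared, replicate 2 of LPS being the exception (adjusted p 0.069 to 0.28), and was -0.69 without replicate 1 of Zeb1∆M LPS.

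Genes of resident large peritoneal macrophages moved with Cxcl13 in LPS + LPS. Their summed level was 2576 to 2739 CPM in Zeb1WT and 4899 to 6699 CPM in Zeb1∆M. By edgeR 4 of 10 were higher in Zeb1∆M (Prg4, Ltbp1, Selp and Timd4; 0.677% of all genes called), with a median log2 fold change of 1.31 against -0.02 over all genes. At an unadjusted p under 0.05 there were 9, and DESeq2 called 8 higher (2.84% of all genes). Without replicate 1 of Zeb1WT LPS + LPS edgeR called 5 higher (2.85% of all genes). In LPS the sums were 13981 to 18150 and 18082 to 19190 CPM, with 0 of 10 called by edgeR, 2 at an unadjusted p under 0.05 and 1 by DESeq2. A second dose lowered 8 of 10 in each genotype (36.6% of all genes called in Zeb1WT and 32.7% in Zeb1∆M). Mesothelial and stromal markers, another source of CXCL13 in the mouse peritoneum, summed to at most 1.91 CPM in any library. The part of the macrophage makeup in the Cxcl13 difference was not tested.

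The receptor for CXCL13, Cxcr5, was lower in Zeb1∆M in LPS. It averaged 105 ± 39.3 CPM in Zeb1WT LPS and 24.997 ± 8.14 in Zeb1∆M LPS (n = 3 each), a change of -2.07 on the log2 scale (edgeR, SE 0.34, adjusted p = 0.0044). In Metformin + LPS it was lower as well (-1.68, edgeR SE 0.34, adjusted p = 0.0075), in LPS + LPS it did not pass the test (0.19, edgeR SE 0.34, adjusted p = 0.90), and a second dose lowered it in Zeb1WT by 4.53 (edgeR, SE 0.38, adjusted p = 5.1e-08) and in Zeb1∆M by 2.27 (edgeR, SE 0.35, adjusted p = 6.6e-05). B cell markers moved with it between genotypes, at 184 to 242 CPM in Zeb1WT LPS against 40.7 to 62.9 in Zeb1∆M. In Metformin + LPS they stood at 53.9 to 93.7 against 29.8 to 37.0, with at most 1 of 8 at 0 in a library. Lower in Zeb1∆M were 3 of 8 in LPS (1.15% of all genes called), 0 in LPS + LPS (0.677%) and 5 in Metformin + LPS (5.87%). A second dose lowered 7 of 8 in Zeb1WT (36.6%) but 2 of 8 in Zeb1∆M (32.7%), with medians of -2.65 and -0.09. Dendritic cell markers were lower in Zeb1∆M too, at 166 to 209 against 20.1 to 47.3 CPM in LPS. In Metformin + LPS they stood at 17.7 to 34.2 against 6.33 to 7.69, with at most 2 of 5 at 0 in either treatment. Of 4 tested, 1 was called lower in LPS (1.15% of all genes called) and 1 in Metformin + LPS (5.87%). The part of either cell type in the Cxcr5 level was not tested.

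Pf4 had the second rank by length in LPS + LPS and the third in the other groups. It stood at 868, 856 and 382 CPM in Zeb1WT LPS and at 699.8, 312 and 505 in Zeb1∆M LPS, with overlap (-0.47, edgeR SE 0.32, adjusted p = 0.56). In Metformin + LPS it was lower in Zeb1∆M, at 526, 482 and 451 CPM against 1699, 683 and 1244 (-1.31, edgeR SE 0.33, adjusted p = 0.023, 2.48-fold), with no overlap. The call was kept without replicate 2 of Zeb1WT and lost without any other of these libraries (adjusted p 0.060 to 0.12), and lost with library totals (-0.68, edgeR adjusted p = 0.086). In LPS + LPS the libraries separated the other way, at 125, 139 and 137 CPM in Zeb1WT and 207, 215 and 223 in Zeb1∆M, without a call (0.69, edgeR SE 0.33, adjusted p = 0.42). A second dose lowered Pf4 by 2.39 in Zeb1WT (edgeR, SE 0.34, adjusted p = 2.5e-05) and by 1.23 in Zeb1∆M (edgeR, SE 0.33, adjusted p = 0.0076, and 0.053 if replicate 1 of Zeb1∆M LPS was left out), and the interaction of 1.16 (edgeR, SE 0.46, adjusted p = 0.61) was not called. Other genes of megakaryocytes and platelets summed to 0.421 to 7.72 CPM in any library, with up to 6 of 8 at 0, so the defining genes of platelets were near 0 in libraries where Pf4 stood between 125 and 1699 CPM.

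Cxcl16, whose protein is anchored in the membrane and shed by ADAM10 and ADAM17, was the steadiest of the group. Its 18 libraries ran from 113 to 226 CPM, its group means from 127 ± 4.76 (Zeb1∆M Metformin + LPS) to 199 ± 44.2 (Zeb1WT LPS + LPS), and 0 of its 7 comparisons between groups were called by edgeR or DESeq2, with 1 at an unadjusted p under 0.05 (Metformin + LPS against LPS in Zeb1WT, -0.43, edgeR SE 0.19, adjusted p = 0.10). The second dose gave 0.16 (edgeR, SE 0.19, adjusted p = 0.53) in Zeb1WT and 0.01 (edgeR, SE 0.19, adjusted p = 0.98) in Zeb1∆M. With library totals in place of TMM factors, however, Cxcl16 was called in 5 of the 7, at 0.81 and 0.60 after the second dose in Zeb1WT and Zeb1∆M, -1.18 and -0.50 with Metformin, and 0.57 between genotypes in Metformin + LPS. The medians of all genes under that scaling were 0.73, 0.59, -0.74, -0.27 and 0.60. Of 7 genes for proteases that cut CXC chemokines, 5 were higher after the second dose in each genotype and 1, Dpp4, was lower in Zeb1WT (-1.49, edgeR SE 0.51, adjusted p = 0.029), against 2504 higher and 2421 lower of 13443 genes in Zeb1WT and 2125 and 2272 in Zeb1∆M. Among those higher was Mmp8, which is also on the list of neutrophil markers. Others were Adam10 (1.13 in Zeb1WT, SE 0.22, edgeR adjusted p = 5.4e-04) and Adam17 (0.90, edgeR SE 0.19, adjusted p = 9.6e-04).

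Of the interactions, 0 of 9 chemokines were called by edgeR for the second dose (0% of all genes) and 0 of 9 for Metformin (0.156% of all genes). At an unadjusted p under 0.05 there were 3 (Cxcl1, Cxcl9 and Pf4), against 6.99% of all genes, and 1 (Cxcl13), against 13.6%. DESeq2 called 0 (0.550% of all genes) and 1 (2.23%), giving no adjusted p for Cxcl11. The Cxcl9 interaction with the second dose was -2.18 over 18 libraries and 0.34 without replicate 1 of Zeb1WT LPS + LPS. Without replicate 1 of Zeb1WT LPS + LPS, 0 of 9 were called for the second dose (0.0645% of all genes) and 1 of 9, Cxcl9, for Metformin. A genotype difference called by edgeR in one treatment and not in another was therefore not shown to differ between treatments. By DESeq2 Cxcl13 was called between genotypes in LPS and for the Metformin interaction.

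Many genes on the lists of LPS sensing to NF-kB and of the interferon arm were lower after the second dose. The first list also holds inhibitors of NF-kB and the second interferon-induced genes, and the part of either in the chemokine changes was not tested. Of 15 genes from LPS sensing to NF-kB, 13 were lower in Zeb1WT and 11 in Zeb1∆M and 0 higher, with medians of -1.40 and -1.20 against 0.08 and 0.01 over all genes. Among them Myd88, the adaptor of TLR4, fell by 1.57 in Zeb1WT (edgeR, SE 0.20, adjusted p = 8.0e-06) and Tnfaip3, an inhibitor that NF-kB itself induces, by 2.26 (edgeR, SE 0.26, adjusted p = 2.0e-06). Of 18 genes tested of the interferon arm, 11 were lower and 2 higher in Zeb1WT and 10 lower and 2 higher in Zeb1∆M, with medians of -1.08 and -1.03. Of all genes 36.6% and 32.7% were called in these comparisons. The interferon-induced genes Rsad2 and Ifit1 led in Zeb1WT, at -7.45 (edgeR, SE 0.46, adjusted p = 1.8e-09) and -6.60 (edgeR, SE 0.46, adjusted p = 7.4e-09).

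Between genotypes these NF-kB and interferon lists had 0 calls by edgeR in LPS and in LPS + LPS, where 1.15% and 0.677% of all genes were called. DESeq2 called 3.76% and 2.84% of all genes there. In LPS 0 of 15 NF-kB arm genes were called by edgeR (2 at an unadjusted p under 0.05, 1 by DESeq2) and 0 of 18 interferon arm genes (2 and 1), with medians of -0.21 and -0.06 against 0.01 over all genes. In LPS + LPS the counts were 0 of 15 (1 unadjusted, 0 by DESeq2) and 0 of 18 (2 and 0). In Metformin + LPS Nfkbia, the NF-kB inhibitor, was lower in Zeb1∆M (-1.19, edgeR SE 0.28, adjusted p = 0.017), Tlr4 higher (0.77, edgeR SE 0.21, adjusted p = 0.037), and Ifngr2 and Ticam1 of the interferon arm lower (-0.94 and -0.78, SE 0.17 and 0.22, edgeR adjusted p = 0.0043 and 0.042). There 3 of 15 and 7 of 18 had an unadjusted p under 0.05, and DESeq2 called 1 higher and 1 lower of the 15 and 6 lower of the 18. Of all genes 5.87% were called by edgeR and 10.2% by DESeq2. The medians were 0.03 and -0.22 against 0.03 over all genes. Of 8 genes that set the decay of chemokine mRNA, 2 were lower after a second dose in each genotype and 6 were not called. Of all genes 36.6% were called in Zeb1WT and 32.7% in Zeb1∆M. Zfp36, whose protein shortens the life of such mRNAs, fell by 2.05 in Zeb1WT and 2.26 in Zeb1∆M (SE 0.33 each, edgeR adjusted p = 8.8e-05 and 4.5e-05). Traf3ip2 fell by 1.86 and 1.66 (SE 0.16 and 0.15, edgeR adjusted p = 5.1e-08 and 2.7e-07). Between genotypes 0 of the 8 were called by edgeR in LPS (1 unadjusted), in LPS + LPS (1) and in Metformin + LPS (3), and by DESeq2 0, 0 and 2. Of all genes edgeR called 1.15%, 0.677% and 5.87% there, and DESeq2 3.76%, 2.84% and 10.2%.

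The other CXC ligands were scarce in these cells. Of 6 further ligand genes 4 were tested, and none averaged above 7.17 CPM in a group. Cxcl12, the ligand of CXCR4, went from 155 counts in the Zeb1WT LPS group to 4 in LPS + LPS and from 143 to 7 in Zeb1∆M, and Cxcl5 was lower with Metformin (-2.88 in Zeb1WT and -3.50 in Zeb1∆M, SE 0.92 and 0.96, edgeR adjusted p = 0.028 and 0.013). Ackr3, a scavenging receptor for CXCL11 and CXCL12, was also lower with Metformin (-2.03 and -2.19, SE 0.35 each, edgeR adjusted p = 5.1e-04 and 2.8e-04). Of the receptors for the chemokines described here other than Cxcr5, Cxcr3 summed to at most 14 counts in a group and Cxcr6 to at most 71, while Cxcr2 averaged 7.27 ± 4.11 CPM in Zeb1WT LPS and 0.695 ± 0.856 in Zeb1∆M LPS. Of 5 receptor genes tested, edgeR called 1 lower in Zeb1∆M in LPS, Cxcr5 (1.15% of all genes called), and so did not call Cxcr2. DESeq2 called 2 of the 5 lower (3.76% of all genes).

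The genes with the most similar profile over the 18 libraries were sought among 6441 expressed genes, by Pearson correlation of log2 CPM. Cxcl10 was closest to Cd40, Ifi47 and Gbp3 (r = 0.99, 0.98 and 0.98), Cxcl11 to Ifi203, Parp9 and Tpst1 (0.98 each) and Cxcl9 to Aig1, Atf3 and Cnn3 (0.86, 0.85 and 0.84). Cxcl1 was closest to Plek, Mitd1 and Fcna (0.96 each), Cxcl2 to Ddx5, Ier3 and Litaf (0.96 each) and Cxcl3 to Mmp13, Srgn and Il1b (0.87, 0.85 and 0.85). For Cxcl13 they were Rpn1, Surf4 and Lrg1 (0.84, 0.83 and 0.82), for Cxcl16 Mir22hg, Hdac4 and Tdg (0.84, 0.84 and 0.83) and for Pf4 Ifnar2, Npc2 and Mt1 (0.94 each). The 18 points share 6 groups and their treatments, so these values describe likeness across the groups. Once each group's mean was taken out, Cxcl9 and Cxcl10 still had r = 0.93, Cxcl13 and Pf4 0.78 and Cxcl2 and Cxcl3 0.73, over all 18 libraries with replicate 1 of Zeb1WT LPS + LPS among them.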

How the data were processed

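The authors deposited 1 table of whole-number gene counts for 55573 genes in 18 libraries of 6 groups, with no values of other samples in it. Polyadenylated RNA was made into stranded TruSeq libraries, and the submitters' notes name STAR, RSEM and DESeq2 on GRCm38, with versions not given in the sources used here. RSEM divides reads that fit several genes, which can blur near-identical family members. Total counts were 14053706 to 30570439 per library.

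Counts were fitted in edgeR 4.0.16 (R 4.3.3, limma 3.58.1) with the quasi-likelihood test, over all 18 libraries, with 1 coefficient per group, TMM factors and the filter filterByExpr. P-values were adjusted by Benjamini-Hochberg over the 13443 genes tested per comparison, and called under 0.05. The standard error is the log2 fold change divided by the root of F. All 18 libraries entered because the labels give 3 replicates per group. Alternatives were median-of-ratios factors, DESeq2 1.42.0, fitting all genes without the filter, fitting the compared groups alone, a block for replicate number, and leaving out each library. Library totals alone, and calls from the fit without replicate 1 of Zeb1WT LPS + LPS for all comparisons, were added after seeing the data. The code was tested on simulated counts.

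The 9 chemokines and the gene lists were chosen with earlier results of these data known. Named are the 9 genes and Zeb1, of each list up to 4 genes with the smallest adjusted p, and for each chemokine the 3 genes most correlated with it (mean log2 CPM of at least 3, prior count 2). Adam17 and Dpp4 in Zeb1WT, Cxcr2, Cxcr3 and Cxcr6 were named after their values were seen. Exon lengths came from GENCODE M21 (55480 of 55573 gene IDs matched without version), and sequences from RefSeq on GRCm38.p6.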

Additional observations from a re-analysis of the deposited data

How the results depend on the processing

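Of 1125 values of single chemokines under the alternatives, 976 kept their direction and side of the threshold, 51 lost a call, 54 gained one and 44 changed sign, 3 of these with a call. The counts of chemokines called out of 9 moved as follows, the cause not tested. With DESeq2 they were 3 for genotype in LPS (3.76% of all genes called), 3 in LPS + LPS (2.84%) and 1 for the Metformin interaction (2.23%), with no adjusted p for Cxcl11. Without the count filter, which tests 27409 genes, they were 6, 5 and 5 for genotype in LPS, LPS + LPS and Metformin + LPS (2.69%, 2.335% and 4.43% of all genes). They were 4 and 4 for Metformin in Zeb1WT and Zeb1∆M (12.3% and 12.4%), and 4 and 2 for the interactions with the second dose and Metformin (0.861% and 2.19%). Fitting the compared groups alone gave 0 for genotype in LPS + LPS (0% of all genes), 3 and 4 for Metformin in Zeb1WT and Zeb1∆M (26.7% and 28.0%) and 1 for its interaction (0.348%). Genotype in LPS + LPS gave 2 with median-of-ratios factors (0.699% of all genes) and 2 with library totals (0.521%), and Metformin in Zeb1∆M 2 with library totals (24.3%). With 1 library left out the counts ran from 0 to 1 for genotype in LPS, 0 to 3 in LPS + LPS, 0 to 4 in Metformin + LPS, 7 to 8 and 5 to 7 for the second dose in Zeb1WT and Zeb1∆M, 0 to 2 and 0 to 4 for Metformin, and 0 and 0 to 1 for the interactions.

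Library totals without TMM moved the median of all genes to 0.10, 0.60, 0.73, 0.59, -0.74 and -0.27 for genotype in LPS and Metformin + LPS, the second dose and Metformin in Zeb1WT and Zeb1∆M each, and to -0.12 and 0.47 for the interactions. The genes called higher and lower went from 28 and 126 to 24 and 82 for genotype in LPS, from 169 and 620 to 3274 and 324 in Metformin + LPS, from 2504 and 2421 to 5337 and 1176 and from 2125 and 2272 to 4353 and 944 for the second dose, and from 1744 and 1648 to 466 and 5131 and from 1693 and 1825 to 930 and 2343 for Metformin. Signs that changed with that scaling were genotype in Metformin + LPS for Cxcl1 (0.28), Cxcl13 (0.084) and Cxcl16 (0.57), the second dose in Zeb1∆M for Cxcl3 (0.15), Metformin in Zeb1WT for Cxcl2 (-0.26), Cxcl3 (-0.74; -0.010 with the compared groups alone) and Cxcl13 (-0.49), Metformin in Zeb1∆M for Cxcl1 (-0.060) and Cxcl3 (-0.14), and the Metformin interaction of Cxcl2 (0.35). Calls lost with it, all in the same direction, were genotype in Metformin + LPS for Cxcl2 (-0.60, adjusted p = 0.15) and Pf4 (-0.68, 0.086), the second dose for Cxcl3 in Zeb1WT (-0.86, 0.085) and for Cxcl9 (-1.49, 0.084), Cxcl13 (-0.57, 0.26) and Pf4 (-0.62, 0.097) in Zeb1∆M, and Metformin in Zeb1WT for Cxcl10 (0.97, 0.16). With the compared groups alone the calls lost were genotype for Cxcl3 in LPS (-1.90, 0.062) and Cxcl13 in LPS + LPS (2.09, 0.15) and the second dose in Zeb1WT for Cxcl3 (-1.56, 0.059). With median-of-ratios factors the second dose in Zeb1∆M was lost for Cxcl13 (-1.18, 0.054).

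Leaving out 1 library changed the sign of these values, given by their lowest and highest: genotype in LPS + LPS for Cxcl11 (-1.58 to 3.26) and in Metformin + LPS for Cxcl16 (-0.17 to 0.13), the second dose for Cxcl9 in Zeb1WT (-2.41 to 0.62) and Cxcl16 in Zeb1∆M (-0.093 to 0.18), Metformin in Zeb1WT for Cxcl1 (-0.38 to 0.25), Cxcl3 (-0.40 to 0.38) and Cxcl13 (-0.081 to 0.63), and Metformin in Zeb1∆M for Cxcl1 (-0.44 to 0.44), Cxcl3 (-0.025 to 0.22) and Pf4 (-0.31 to 0.25). It also did so for the interaction with the second dose of Cxcl2 (-0.075 to 0.82), Cxcl9 (-2.68 to 0.34), Cxcl10 (-2.08 to 0.39) and Cxcl11 (-0.78 to 4.06), and with Metformin of Cxcl1 (-0.42 to 0.54), Cxcl2 (-0.42 to 0.088) and Cxcl3 (-0.28 to 0.49).

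Replicate numbers did not pair the samples: 1 of 21 same-numbered pairs had a correlation of deviations over 0.1 (range -0.09 to 0.14). With the replicate block the count for genotype in LPS + LPS was 0, with Cxcl13 at 2.12 (adjusted p = 0.053), Cxcl13 was not called for the second dose in Zeb1∆M (-1.14, adjusted p = 0.071), and Cxcl9 stood at -0.26 for the second dose in Zeb1WT. Depth limits Cxcl11 in LPS + LPS, with 1 to 118 counts per library.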
